A study of Mus musculus with 36 samples.

Results

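The response of the heart to expanded CUG repeat RNA was compared between the left ventricle and the atria of CUG960 mice, a model of the cardiac disease of myotonic dystrophy type 1 (DM1). RNA-seq libraries of 4 groups entered the comparison, left ventricle on dox, left ventricle no dox, atria on dox and atria no dox, with 3 libraries each, or 12 of the 36 libraries of the series. Every mouse had the genotype TREDT960I (Hom)/MHCrtTA (Hem). TREDT960I is a human DMPK transgene with an interrupted CTG expansion that stays silent until a doxycycline-bound activator reaches its promoter. MHCrtTA supplies that activator, rtTA, and its α-myosin heavy chain promoter limits it to heart muscle cells. Mice on dox received doxycycline from postnatal day 1 until tissue was taken at 21 weeks of age, and no dox mice of the same age and genotype never received it. Doxycycline and the repeat RNA come together in this design, so their effects cannot be told apart. No group without the transgenes is among the 12 libraries. Ventricle and atria were taken from the same mice, so the libraries of the chambers are not independent, and 6 mice stand behind the 12 libraries.

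Repeat RNA of this kind binds the muscleblind-like (MBNL) splicing factors and keeps them from their targets, so that splicing in the adult heart reverts towards fetal patterns. In patients the disease appears in the heart as slowed conduction and as arrhythmia of both the atria and the ventricles. The 2 chamber types differ in contractile proteins, ion channels and gap junctions: the working ventricle is built for force, and the thin-walled atria start and relay the beat and secrete natriuretic peptides.

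The 4 groups were compared gene by gene through 3 quantities. The ventricle response is the log2 fold change of on dox against no dox in the left ventricle, the atria response is the same in the atria, and the interaction is the first minus the second. Calls needed a change of at least 1.5-fold and an adjusted P below 0.05 in the quasi-likelihood test of edgeR (Benjamini-Hochberg, over all tested genes). A response was taken as chamber-specific where 1 response and the interaction were called, as shared where both responses were called in the same direction and the interaction was not, and as opposite where both were called in opposite directions. Levels are CPM (library-size-scaled counts, TMM normalization), listed in the order of replicates 1, 2 and 3, and log2 values are given ± SE.

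The totals of the 12 libraries lay between 58.8 M and 97.1 M estimated counts, with 22501 to 24041 genes detected in each. Chamber labels fitted the defining genes. The summed level of 15 genes of ventricular identity was between 12330 and 16173 CPM in the ventricle libraries and between 1725 and 2059 CPM in the atria libraries. Myl7, the atrial myosin light chain, was at 2.89, 76.3 and 28.7 CPM in the ventricle no dox libraries, at 25.2, 54.8 and 4.45 CPM in the ventricle on dox libraries, and between 2189 and 2751 CPM in all 6 atria libraries. Replicate 3 of every group was from the second set of library names, and its Xist level was between 215 and 424 CPM against at most 0.867 CPM in replicates 1 and 2, so sex and library set differed within the groups and equally in all 4. Mitochondrial transcripts made up 14.9% to 15.9% of counts in ventricle on dox, 16.1% to 17.9% in ventricle no dox and 9.3% to 10.2% in the atria.

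Both chambers responded, and most responses were not shown to differ between them. Of 19231 genes tested, 1461 (7.6%) were called in the ventricle and 1005 (5.23%) in the atria. In the ventricle 794 genes (4.13%) rose and 667 (3.47%) fell on dox. In the atria 461 (2.4%) rose and 544 (2.83%) fell. The interaction was called for 147 genes (0.764%), 76 (0.395%) with the more positive response in the ventricle and 71 (0.369%) with the more positive response in the atria. The median log2 change over all tested genes was -0.01 in the ventricle, -0.03 in the atria and 0.01 for the interaction. In bulk tissue, fewer cells of a type and less RNA per cell cannot be told apart.

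Most genes called in 1 chamber alone had no called interaction. Of 1024 genes called in the ventricle alone, 59 also had a called interaction. Of 568 called in the atria alone, 41 did. The 147 interaction genes divide into 59 ventricle-specific responses (37 rises and 22 falls), 41 atria-specific responses (26 rises and 15 falls), 18 responses of the same direction and unequal size, 4 opposite responses and 25 genes for which neither response was called. A further 415 genes had a shared response, 199 rises and 216 falls. The shared rises had a median of 1.02 (ventricle) and 1.00 (atria), and the shared falls one of -0.95 and -0.97.

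Same-numbered ventricle and atria libraries of a cohort varied together. The main fit, which gave the SE and adjusted P values quoted here, has no term for these pairs and treats their libraries as independent. A fit that blocks on these pairs called 299 interactions, with 118 ventricle-specific and 78 atria-specific responses. By limma on log2(TPM + 1) there were 54 ventricle-specific and 94 atria-specific responses, so the order of the 2 classes turned. The counts also rest on single libraries: 89 interactions were called without atria on dox replicate 2 and 93 without atria no dox replicate 2. Of the 147 interactions, 71 were called in all 12 fits that leave out 1 library.

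**Figure D1:**
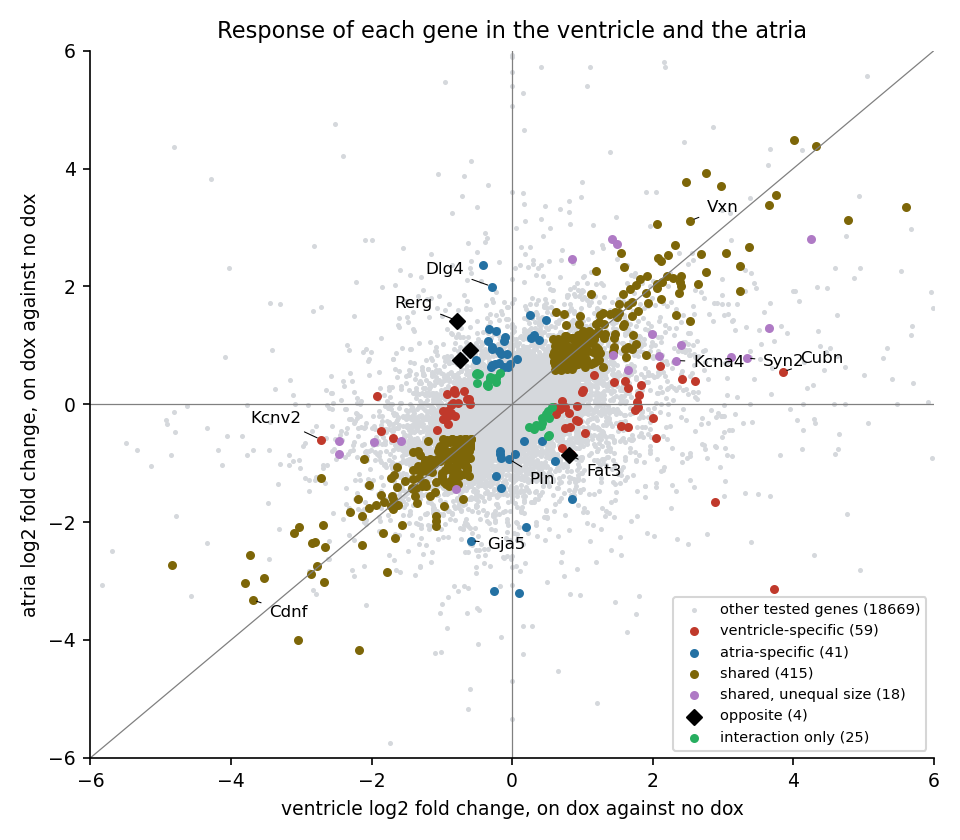
Response of each tested gene in the left ventricle (x axis) and the atria (y axis), both as log2 fold change of on dox against no dox, with points colored by class and the diagonal marking equal responses. The 415 shared genes lie along the diagonal, the 59 ventricle-specific genes spread mostly along the x axis and the 41 atria-specific genes mostly along the y axis, some of them off the lines of no change, since the classes rest on calls; 38 genes lie outside the axes.

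Opposite responses were rare. Only 4 genes were called in opposite directions against 433 called in both chambers in the same direction. The count of 4 fell to 2 without ventricle on dox replicate 1, ventricle no dox replicate 3, atria on dox replicate 2 or atria no dox replicate 2, and was 21 without the fold threshold. Rerg, which encodes a Ras-like small GTPase (GRCm38 chr6:137054825-137170497, minus strand), was at 2.21, 2.37 and 2.41 CPM in ventricle no dox and at 1.16, 1.28 and 1.63 CPM in ventricle on dox. In the atria it was at 3.70, 3.51 and 3.56 CPM without dox and at 11.3, 10.01 and 7.47 CPM on dox. The groups did not overlap in either chamber, and they moved apart in opposite directions. The Rerg response was -0.79 ± 0.18 in the ventricle (adjusted P = 0.0017) and 1.42 ± 0.17 in the atria (adjusted P = 3.8e-07), an interaction of -2.21 ± 0.25 (adjusted P = 3.5e-06). That call was made in all 12 fits that leave out 1 library.

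Chst11 encodes a sulfotransferase that modifies chondroitin chains of the extracellular matrix. It was at 6.85, 7.30 and 7.57 CPM in ventricle no dox and 5.05, 4.24 and 5.10 CPM in ventricle on dox. In the atria it was at 12.3, 10.5 and 13.9 CPM without dox and 23.0, 23.1 and 23.2 CPM on dox. Again the groups overlapped in neither chamber. Its responses were -0.59 ± 0.15 (adjusted P = 0.0033) and 0.92 ± 0.14 (adjusted P = 2.0e-05). The ventricle response sits just past the 1.5-fold threshold and was not called without ventricle on dox replicate 2 or without ventricle no dox replicate 3.

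The gene 2010300C02Rik showed the same pattern, with 2.67, 2.11 and 2.18 CPM in ventricle no dox and 1.42, 1.58 and 1.12 CPM in ventricle on dox. Its atria levels were 9.55, 9.08 and 10.5 CPM without dox and 17.3, 17.6 and 13.9 CPM on dox. The ventricle response was -0.75 ± 0.24 (adjusted P = 0.027) and the atria response 0.74 ± 0.21 (adjusted P = 0.016). Neither response was called in every fit that left out 1 library: the ventricle response was lost without ventricle on dox replicate 1 or 3 or ventricle no dox replicate 1, and the atria response without atria on dox replicate 1 or 2 or atria no dox replicate 2.

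Fat3, an atypical cadherin, was the one gene called higher on dox in the ventricle and lower in the atria. It was at 1.60, 0.920 and 0.606 CPM in ventricle no dox against 1.98, 2.07 and 1.46 CPM in ventricle on dox, and the 2 ventricle groups overlapped. In the atria it was at 1.20, 1.16 and 1.00 CPM without dox and at 0.646, 0.655 and 0.542 CPM on dox, with no overlap. The responses were 0.82 ± 0.27 (adjusted P = 0.029) and -0.86 ± 0.28 (adjusted P = 0.029). Its interaction of 1.68 ± 0.39 (adjusted P = 0.023) was called in 3 of the 12 fits that leave out 1 library, so Fat3 is the least secure of the 4.

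**Figure D2:**
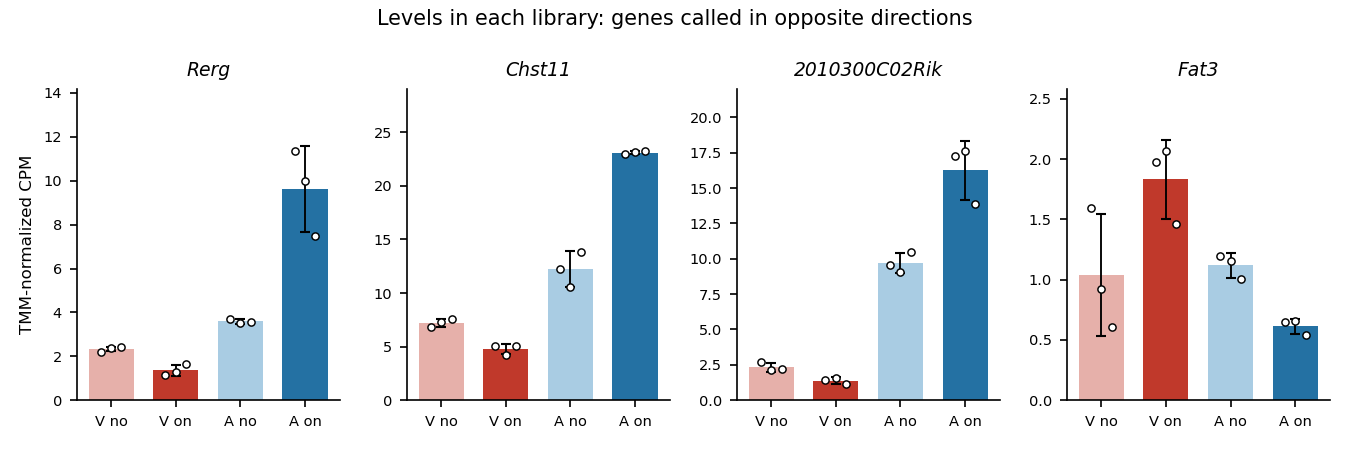
TMM-normalized CPM of the 4 genes called in opposite directions, with 1 point per library, bars at the mean of 3 libraries and error bars of 1 SD, for ventricle (V) and atria (A), no dox and on dox. Rerg, Chst11 and 2010300C02Rik fell in V and rose in A, and Fat3 rose in V, where its groups overlap, and fell in A.

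Sodium channel genes mostly fell where they were called. Of 15 tested genes of voltage-gated sodium channels and their partners, which carry the upstroke of the action potential, 6 fell in the ventricle, and in the atria 4 fell and 1 rose. The median response was -0.26 (ventricle) and -0.13 (atria), against -0.01 and -0.03 over all tested genes. Over all tested genes 4.13% rose and 3.47% fell in the ventricle, and 2.4% rose and 2.83% fell in the atria. These shares stand beside the counts of the other lists as well. In ventricle and atria Scn10a fell by 2.10 and 0.92 and Scn3a, another channel subunit, by 0.64 and 1.07. Scn4b, an auxiliary β subunit, rose in the atria (0.80) and had a ventricle value of 0.11, and its interaction did not pass the test (adjusted P = 0.52).

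Potassium channel subunits gave both a ventricle-specific fall and a rise that was larger in the ventricle. Kcnv2, a silent subunit that modifies other potassium channels, was at 37.3, 27.8 and 32.3 CPM in ventricle no dox and 3.24, 4.41 and 7.23 CPM in ventricle on dox. In the atria it was at 11.3, 9.71 and 10.4 CPM without dox and 6.01, 8.29 and 6.39 CPM on dox. The groups overlapped in neither chamber. Kcnv2 fell by 2.72 ± 0.26 in the ventricle (adjusted P = 2.7e-08), while its atria value of -0.60 ± 0.25 did not pass the test (adjusted P = 0.10), and the interaction was -2.12 ± 0.35 (adjusted P = 0.0017).

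Kcna7, which encodes a Shaker-type potassium channel, had ventricle levels of 6.46, 5.56 and 6.04 CPM without dox and 3.11, 3.43 and 2.96 CPM on dox. Its atria levels ran from 6.98 to 7.34 CPM without dox and from 6.32 to 6.88 CPM on dox. It fell by 0.92 ± 0.11 in the ventricle, with an atria value of -0.12 ± 0.11 and an interaction of -0.81 ± 0.16 (adjusted P = 0.0055), which was not called on library set A alone or by limma on log2(TPM + 1).

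Kcna4 encodes a subunit of the transient outward current. It was at 1.12, 1.72 and 2.23 CPM in ventricle no dox and 9.71, 8.45 and 7.46 CPM in ventricle on dox, and at 5.78, 5.37 and 6.81 CPM in atria no dox and 10.5, 9.09 and 10.5 CPM in atria on dox. All 3 on dox libraries lay above all 3 no dox libraries in both chambers. Kcna4 rose by 2.34 ± 0.18 in the ventricle (adjusted P = 7.8e-11) and by 0.74 ± 0.17 in the atria (adjusted P = 0.0021), with an interaction of 1.60 ± 0.24 (adjusted P = 0.00040). The fitted difference of ventricle minus atria went from -1.83 ± 0.18 without dox to -0.23 ± 0.17 on dox. The interaction was not called by limma on log2(TPM + 1). Of 29 potassium channel genes tested, 3 rose and 3 fell in the ventricle and 3 rose in the atria, with medians of -0.14 and 0.06 in the 2 chambers.

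Among the atria-specific falls were a gap junction gene and a regulator of the calcium pump. Gja5 encodes connexin 40, the gap junction protein of atrial muscle and of the fast conduction system (GRCm38 chr3:96904693-97077416, plus strand). It was at 85.5, 74.9 and 78.8 CPM in atria no dox and 15.3, 14.5 and 18.3 CPM in atria on dox. In the ventricle it was at 4.76, 8.14 and 7.35 CPM without dox and 4.25, 4.55 and 4.70 CPM on dox. The groups did not overlap in either chamber, and the atria groups were apart by far more than their spread. Gja5 fell by 2.31 ± 0.22 in the atria (adjusted P = 1.5e-08). In the ventricle its value was -0.59 ± 0.22 (adjusted P = 0.058), and the interaction was 1.73 ± 0.30 (adjusted P = 0.0023). None of the other 19 tested genes of connexins and junctions had a called interaction.

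Pln encodes phospholamban, the inhibitor of the sarcoplasmic reticulum calcium pump (GRCm38 chr10:53337667-53345987, plus strand). Its level in the atria was 1512, 1624 and 1768 CPM without dox and 871, 843 and 867 CPM on dox. In the ventricle it was 6062, 6251 and 6140 CPM without dox and 5875, 5536 and 6417 CPM on dox. The atria groups were apart and the ventricle groups overlapped. The Pln response was -0.93 ± 0.11 in the atria (adjusted P = 3.2e-07) and -0.05 ± 0.11 in the ventricle, an interaction of 0.88 ± 0.15 (adjusted P = 0.0018). Exons of Gm47644 on the other strand cover 59.6% of the exonic bases of Pln, and the strand setting of the counting is not given in the sources used here, so reads of the 2 genes may not have been told apart.

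**Figure D3:**
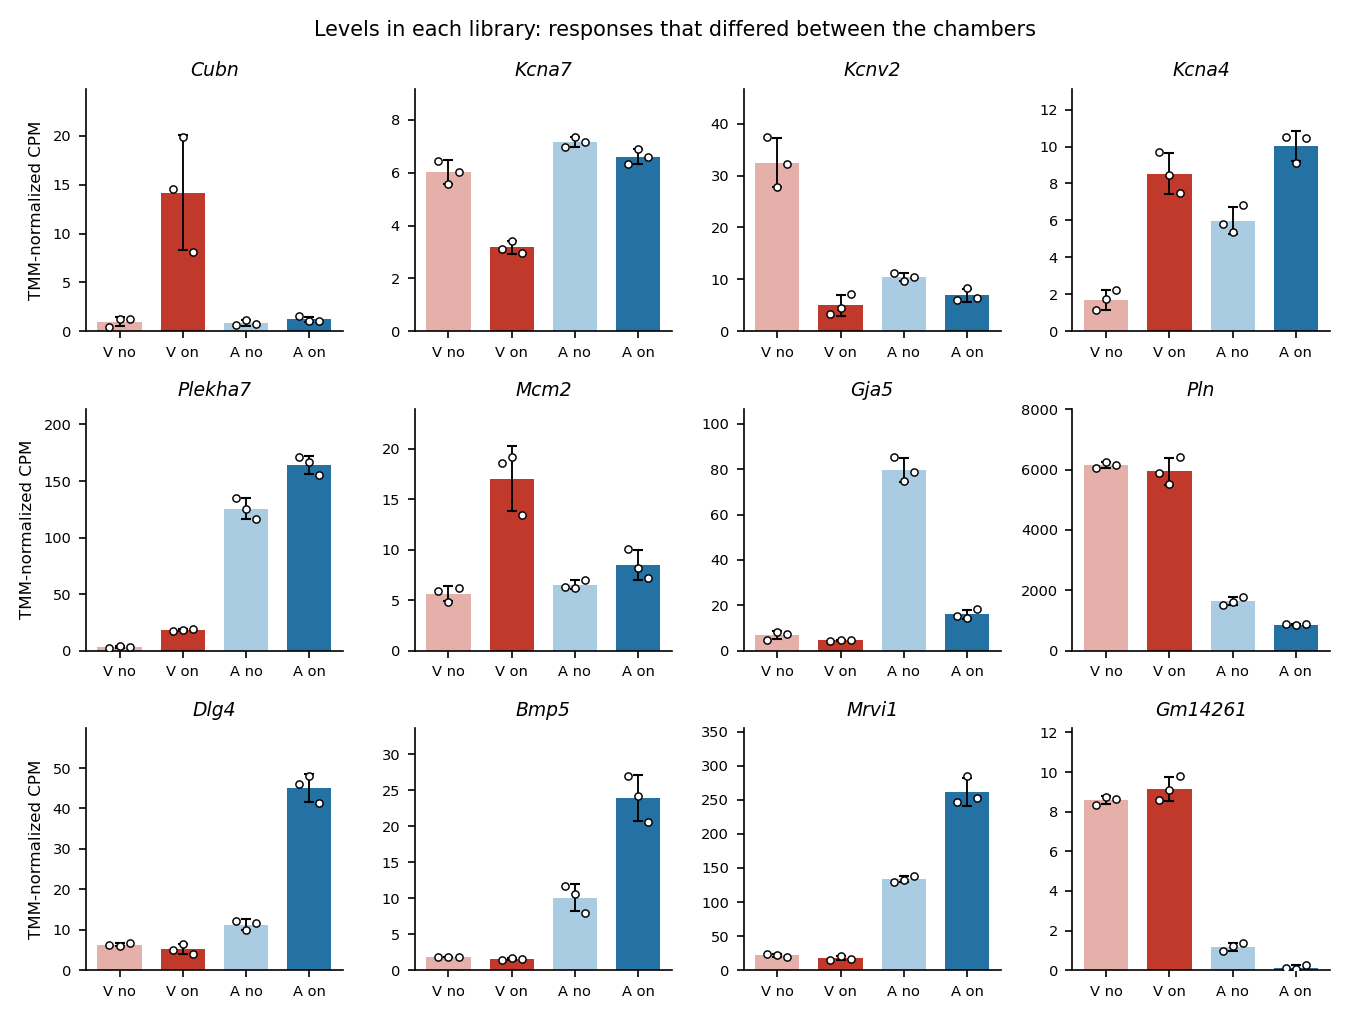
TMM-normalized CPM in ventricle (V) and atria (A), no dox and on dox, of 12 genes whose response differed between the chambers, with 1 point per library, bars at the mean of 3 libraries and error bars of 1 SD. Kcna4 rose in both chambers, Cubn, Plekha7 and Mcm2 rose and Kcna7 and Kcnv2 fell in the ventricle, Gja5, Pln and Gm14261 fell in the atria, and Dlg4, Bmp5 and Mrvi1 rose in the atria.

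The 300 bases around a RefSeq start of Gja5 and of Pln are shown because both genes fell in the atria and not by the test in the ventricle. They run from 250 bases before to 50 bases after the start (RefSeq, GRCm38.p6), at chr3:97032152-97032451 and chr10:53337436-53337735, both on the plus strand. The Gja5 window lies inside the GENCODE span given above and not at its upstream end. Capitals mark AAGTG, the core of NK homeobox sites, and GATAA, the core of GATA sites, on either strand.
Gja5: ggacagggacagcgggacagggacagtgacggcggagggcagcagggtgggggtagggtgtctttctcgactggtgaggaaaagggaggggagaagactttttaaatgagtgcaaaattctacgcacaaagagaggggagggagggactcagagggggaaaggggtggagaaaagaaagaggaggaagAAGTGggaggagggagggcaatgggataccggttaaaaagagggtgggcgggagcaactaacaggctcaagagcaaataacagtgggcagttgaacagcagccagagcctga
Pln: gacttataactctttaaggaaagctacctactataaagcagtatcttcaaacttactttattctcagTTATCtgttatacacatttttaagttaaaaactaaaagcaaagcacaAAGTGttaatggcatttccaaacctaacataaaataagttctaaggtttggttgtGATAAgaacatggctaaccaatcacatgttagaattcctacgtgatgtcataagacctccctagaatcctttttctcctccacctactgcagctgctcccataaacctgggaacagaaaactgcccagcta

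Gja5 holds 1 AAGTG and no GATAA, and Pln holds 1 AAGTG and 2 GATAA. The T-box half-site AGGTGT was in neither window. Over 32841 RefSeq promoter windows of this length, AAGTG was in 46.4%, GATAA in 25.4% and AGGTGT in 13.7%. For the atria-specific class 40 windows of 28 genes were found, of which 52.5% held AAGTG, 15% GATAA and 5% AGGTGT. For the ventricle-specific class 52 windows of 43 genes held them in 36.5%, 5.77% and 17.3%. A match is a run of letters and no evidence of binding.

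Pln was the 1 calcium cycling gene with a called interaction. Among 32 tested genes of that list, 2 rose and 5 fell in the ventricle, and 2 rose and 4 fell in the atria, with medians of 0.02 and -0.10. Ryr2, the calcium release channel of the sarcoplasmic reticulum, fell by 0.96 ± 0.07 in the ventricle and by 0.69 ± 0.07 in the atria. The interaction of Ryr2 was -0.27 ± 0.10 (adjusted P = 0.23). Asph, whose locus also encodes the release channel partner junctin, rose by 0.85 ± 0.09 in the ventricle and had an atria value of 0.44 ± 0.09, below the fold threshold, and its interaction of 0.40 ± 0.12 was not called (adjusted P = 0.11). Cacna1c, the pore subunit of the L-type calcium channel, fell by 0.63 ± 0.07 in the ventricle and had an atria value of -0.19 ± 0.07. Its interaction of -0.43 ± 0.10 had an adjusted P of 0.030 and missed the fold threshold.

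Genes of the sinoatrial node and conduction system moved in both directions. Of 19 tested, 3 rose and 4 fell in the atria, and 2 rose and 2 fell in the ventricle, with medians of -0.14 and 0.07. Gja5 alone had a called interaction. Tbx18, a transcription factor of the sinus node, fell in both chambers, by 0.65 (ventricle) and 0.64 (atria), and Cacna1g, a T-type calcium channel, rose in both, by 1.19 and 1.36. Hcn4, the pacemaker channel, was variable, with 8.48, 14.3 and 20.9 CPM in ventricle no dox, 37.3, 36.5 and 9.17 CPM in ventricle on dox, 15.5, 13.1 and 2.88 CPM in atria no dox and 24.4, 27.2 and 17.1 CPM in atria on dox. The ventricle groups overlapped and the atria groups did not, and neither response of Hcn4 passed the test (adjusted P = 0.23 and 0.15).

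Cubn had the largest interaction of the ventricle-specific rises named by rule. Cubn encodes cubilin, an endocytic receptor. It was at 0.459, 1.23 and 1.25 CPM in ventricle no dox and 14.6, 19.8 and 8.15 CPM in ventricle on dox, and between 0.617 and 1.52 CPM in the 6 atria libraries. The ventricle groups did not overlap and the atria groups did. Cubn rose by 3.85 ± 0.44 in the ventricle (adjusted P = 3.2e-07), with an atria value of 0.55 ± 0.42 and an interaction of 3.30 ± 0.60 (adjusted P = 0.0030).

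Plekha7, an adherens junction protein, was far lower in the ventricle than in the atria. Its levels were 2.01, 3.78 and 3.18 CPM in ventricle no dox, 17.5, 18.2 and 18.9 CPM in ventricle on dox, 135, 125 and 116 CPM in atria no dox and 171, 166 and 156 CPM in atria on dox. It rose by 2.60 ± 0.29 in the ventricle, its atria value was 0.39 ± 0.25, and the interaction was 2.21 ± 0.38 (adjusted P = 0.0023). The groups were apart in both chambers, and on dox the ventricle stayed below the atria by a fitted log2 difference of -3.18 ± 0.28, against -5.39 ± 0.32 without dox. The other ventricle-specific rises named by rule were Iqgap3 (2.05), Prokr1 (2.00), Efhd1 (1.79) and Pttg1 (1.54), with atria values between -0.57 and -0.05. Prokr1 is a prokineticin receptor, Efhd1 a mitochondrial calcium-binding protein and Pttg1 the sister chromatid regulator securin. Leaving out 1 library at a time kept the interaction call in all 12 fits for Cubn, Plekha7, Prokr1 and Pttg1, in 10 for Efhd1 (lost without atria on dox replicate 2 or atria no dox replicate 3) and in 2 for Iqgap3. The interaction of Prokr1 was not among the calls where 1 CPM was required in each chamber. That of Efhd1 was not called on library set A alone.

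Some proliferation genes were called higher in the ventricle. Of 12 cell cycle markers, 7 rose in the ventricle and none passed the test in the atria, against rises of 4.13% and 2.4% of all tested genes. The markers had medians of 1.48 (ventricle) and 0.37 (atria). The summed level was 57.9 to 75.2 CPM in ventricle no dox and 96.9 to 159 CPM in ventricle on dox, and in the atria 50.9 to 57.9 and 62.4 to 70.3 CPM, so on dox libraries were higher in both chambers. Mcm2, a subunit of the replicative helicase, was the 1 marker with a called interaction, at 5.90, 4.81 and 6.21 CPM in ventricle no dox, 18.6, 19.2 and 13.4 CPM in ventricle on dox, 6.33, 6.19 and 7.04 CPM in atria no dox and 10.1, 8.22 and 7.22 CPM in atria on dox. The 3 on dox libraries were above the no dox libraries in both chambers. Mcm2 rose by 1.60 ± 0.18 in the ventricle and had an atria value of 0.39 ± 0.18, an interaction of 1.21 ± 0.25 (adjusted P = 0.0081). Cdk1, the mitotic kinase, rose by 1.88 in the ventricle with an atria value of 0.47, and Ccnb1, its cyclin, by 2.46 with 0.88, but their interactions did not pass the test (adjusted P = 0.37 and 0.61). Outside the list, and chosen after their values were seen, Mcm7 (0.92 in the ventricle and -0.03 in the atria), Gins2 (1.65 and 0.27) and Mad2l1 (0.81 and -0.14) were ventricle-specific rises too. The calls of these 3 held in 5, 7 and 3 of the 12 fits that leave out 1 library, and the annotated exons of Gins2 lie 67.3% under an opposite-strand gene.

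The ventricle-specific falls named beside the channel genes were Gm15543, Fstl4, Fah, Rasgrp2 and Efr3b. Gm15543, an antisense transcript, was at 8.61, 9.05 and 8.58 CPM in ventricle no dox and 1.86, 2.22 and 2.89 CPM in ventricle on dox, and between 17.0 and 23.9 CPM in the atria, where the groups overlapped. Its interaction was -2.06 ± 0.31 (adjusted P = 0.00040). Fah, the last enzyme of tyrosine breakdown, fell by 1.69 ± 0.17 in the ventricle with an atria value of -0.58 ± 0.17, which had an adjusted P of 0.018 and missed the fold threshold. Rasgrp2, an activator of Rap GTPases, fell by 0.93 and had an atria value of 0.17. Fstl4, a follistatin-like protein, fell by 1.87 with an atria value of -0.45, and Efr3b, a membrane anchor of a lipid kinase, by 0.83 with 0.24. The interaction was kept in all 12 fits for Gm15543, in 11 for Rasgrp2 (lost without atria no dox replicate 2), in 10 for Fah (lost without ventricle on dox replicate 1 or ventricle no dox replicate 1) and in 3 each for Fstl4 and Efr3b. That of Rasgrp2 was also not called on library set A alone.

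Dlg4 had the lowest adjusted P of all interactions. It encodes PSD-95, a membrane scaffold best known at synapses that binds channels and receptors (GRCm38 chr11:70016942-70047522, plus strand). Its levels were 12.3, 9.84 and 11.8 CPM in atria no dox, 46.1, 47.9 and 41.3 CPM in atria on dox, 6.27, 5.98 and 6.72 CPM in ventricle no dox and 4.96, 6.47 and 4.04 CPM in ventricle on dox. The atria groups were far apart and the ventricle groups overlapped. Dlg4 rose by 2.00 ± 0.12 in the atria (adjusted P = 4.95e-13), with a ventricle value of -0.29 ± 0.13 (adjusted P = 0.105) and an interaction of -2.29 ± 0.18 (adjusted P = 8.8e-10).

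Bmp5, a growth factor of the BMP family, was at 11.7, 10.5 and 8.00 CPM in atria no dox and 26.9, 24.2 and 20.6 CPM in atria on dox. In the ventricle it stayed between 1.46 and 1.89 CPM in all 6 libraries. It rose by 1.25 ± 0.16 in the atria, with a ventricle value of -0.22 ± 0.18 and an interaction of -1.47 ± 0.24 (adjusted P = 0.0010). Exons of Gm26903 on the opposite strand cover 46.7% of its exonic bases. Mrvi1, a target of cGMP-dependent kinase at the inositol trisphosphate receptor, was at 129, 133 and 138 CPM in atria no dox and 246, 284 and 253 CPM in atria on dox, with an interaction of -1.26 ± 0.21 (adjusted P = 0.0013). Xylt1, which starts glycosaminoglycan chains of proteoglycans, rose by 1.29, Whrn, a scaffold protein, by 1.08 and Brsk1, a kinase, by 0.75 in the atria, with ventricle values of -0.33, -0.34 and -0.52. The ventricle value of Brsk1 had an adjusted P of 0.033 and missed the fold threshold. Exons of Tmem150b on the opposite strand cover 25.7% of the exonic bases of Brsk1. The interaction held in all 12 fits that leave out 1 library for Dlg4, Bmp5, Mrvi1, Xylt1 and Brsk1, and in 7 for Whrn.

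Further atria-specific falls were Gm14261, Dpysl5, Nalcn, C530008M17Rik and Ndrg4. Gm14261, a processed transcript, was at 0.944, 1.23 and 1.35 CPM in atria no dox, 0.0861, 0.0537 and 0.264 CPM in atria on dox and between 8.34 and 9.78 CPM in the ventricle, with an interaction of 3.29 ± 0.52 (adjusted P = 0.00089). The atria groups were apart and the ventricle groups overlapped. It lies opposite Sall4, a zinc finger gene named here because of that overlap. Sall4 fell in the atria as well (-3.18 ± 0.44, with -0.26 ± 0.29 in the ventricle), so the 2 may not be independent. Sall4 was at only 0.302, 0.283 and 0.295 CPM in atria no dox and 0.0431, 0.0215 and 0.0278 CPM in atria on dox. Neither gene was tested where a mean of 1 CPM was required in each chamber, because both lay below it in the atria. The interaction of Sall4 was not called by limma on log2(TPM + 1). Dpysl5, an axon guidance protein, fell by 2.09 in the atria, C530008M17Rik by 1.41, Nalcn, the sodium leak channel, by 0.96 and Ndrg4, a gene of cardiac growth, by 0.63, with ventricle values of 0.20, -0.16, 0.61 and 0.43. The interactions of Dpysl5, C530008M17Rik, Nalcn and Ndrg4 were called in 6, 7, 4 and 5 of the 12 fits that leave out 1 library. That of Dpysl5 was not among the calls where 1 CPM was required in each chamber. That of C530008M17Rik (adjusted P = 0.016) was not called with the pairs as a block (adjusted P = 0.065). Clu, which encodes the extracellular chaperone clusterin and was chosen after its values were seen, was at 2004, 2289 and 2000 CPM in atria no dox and 1040, 1209 and 1108 CPM in atria on dox. It fell by 0.91 ± 0.10 in the atria, had a ventricle value of -0.15 ± 0.09 and an interaction of 0.75 ± 0.13 (adjusted P = 0.0022), called in all 12 of those fits.

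Markers of atrial identity, fibroblasts and epicardium had lower summed levels in atria on dox. The summed level of 18 atrial identity genes was 24817 to 26453 CPM in atria no dox and 17738 to 20386 CPM in atria on dox, and that of 9 fibroblast markers 6033 to 6469 and 4800 to 5554 CPM. Nppa, the atrial natriuretic peptide gene, takes much of the first sum, and its own atria value of -0.81 ± 0.50 did not pass the test (adjusted P = 0.30). Of the 18 genes 1 rose and none fell in the atria, and none of the 9 fibroblast markers was called. Epicardial markers summed to 134 to 203 CPM in atria no dox and 32.1 to 116 CPM in atria on dox. No gene of these 3 lists was at 0 in a whole atria group. The part of these shifts in the atria-specific changes was not tested.

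Unequal responses of the same direction were larger in the ventricle for 14 of 18 genes. Of the 18, 13 rose and 5 fell, and the rises had a median of 2.10 (ventricle) and 1.01 (atria). Syn2, a synaptic vesicle protein chosen after its values were seen, was at 5.08, 6.99 and 3.73 CPM in ventricle no dox, 52.8, 54.9 and 52.6 CPM in ventricle on dox, 48.1, 46.8 and 38.0 CPM in atria no dox and 85.9, 78.7 and 64.6 CPM in atria on dox. The groups were apart in both chambers, and ventricle on dox lay just above atria no dox. Markers of Schwann cells and neurons, tissue in which synaptic genes are also expressed, summed to 25.5 to 35.8 CPM in ventricle no dox and 52.8 to 81.8 CPM in ventricle on dox, and to 29.7 to 32.7 and 49.2 to 58.7 CPM in the atria, and their part in Syn2 was not tested. Cadm4, a cell adhesion gene, carried that sum with means of 20.2 and 60.03 CPM in the ventricle and 9.48 and 34.5 CPM in the atria, while the median response of the 6 tested markers was -0.64 (ventricle) and -0.57 (atria). Syn2 rose by 3.34 ± 0.25 and 0.79 ± 0.22 (interaction 2.55 ± 0.32, adjusted P = 6.9e-05), and its atria call was lost without atria on dox replicate 1 or atria no dox replicate 3. Also chosen after their values were seen, Igfbpl1 rose by 3.66 and 1.302, Aass, an enzyme of lysine breakdown, by 3.12 and 0.80 and Abat, the GABA transaminase, by 2.10 and 0.83. In contrast, Rims4, a regulator of vesicle release, rose by 0.85 (ventricle) and 2.47 (atria).

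Neither response was called for 25 genes with a called interaction, and all 25 had fitted responses of opposite sign, which the definition of the class largely fixes. Cgnl1, a cell junction protein used here as an endocardial marker, was at 47.9, 51.2 and 57.3 CPM in ventricle no dox, 73.7, 83.3 and 65.6 CPM in ventricle on dox, 130, 144 and 153 CPM in atria no dox and 92.1, 94.2 and 108 CPM in atria on dox. The groups overlapped in neither chamber. Its values were 0.51 ± 0.10 and -0.54 ± 0.10, each with an adjusted P below the threshold and a fold below it, and the interaction was 1.05 ± 0.14 (adjusted P = 9.7e-05). The summed level of 7 endocardial markers was 163 to 188 CPM in ventricle no dox and 184 to 218 CPM in ventricle on dox, and 905 to 1001 and 760 to 860 CPM in the atria, and the part of that shift in Cgnl1 was not tested. Smc4, a condensin subunit chosen after its values were seen, had 0.53 ± 0.10 in the ventricle and -0.52 ± 0.10 in the atria. Eno1, the glycolytic enolase, had -0.32 and 0.46. However, 65.4% of the 75-base windows of its longest transcript also occur in other genes, most of all in Eno1b. Eno1b and the pseudogene Gm4735 gave the same pattern (-0.68 and 0.23, and -0.50 and 0.36), so reads may be split among the 3.

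Integrated stress response genes showed 1 difference that rested on few libraries. Of 25 tested, 3 rose in the ventricle, and in the atria 1 rose and 4 fell, with medians of 0.05 and -0.09. Mthfd2, a mitochondrial folate enzyme, was at 3.06, 3.93 and 3.22 CPM in ventricle no dox, 7.31, 5.05 and 6.03 CPM in ventricle on dox, 11.3, 10.2 and 2.26 CPM in atria no dox and 3.64, 1.97 and 2.24 CPM in atria on dox. Atria no dox replicate 3 lay inside the on dox range. The interaction was 2.45 ± 0.51 (adjusted P = 0.013) and was not called without atria on dox replicate 2, atria no dox replicate 1 or atria no dox replicate 2. Phgdh, of serine synthesis, fell by 1.23 in the atria with a ventricle value of 0.14, and its interaction did not pass the test (adjusted P = 0.051).

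Shared falls named by rule ran to over 2-fold in both chambers. Cdnf, a neurotrophic factor of the endoplasmic reticulum, was at 39.1, 37.0 and 30.6 CPM in ventricle no dox, 2.76, 2.51 and 2.99 CPM in ventricle on dox, 26.6, 27.4 and 23.1 CPM in atria no dox and 2.67, 2.65 and 2.38 CPM in atria on dox. The groups were far apart in both chambers. Cdnf fell by 3.69 ± 0.24 and 3.32 ± 0.24, and the interaction was -0.37 ± 0.32 (adjusted P = 0.75). Coq8a, a kinase-like protein of coenzyme Q synthesis, fell by 2.84 and 2.35, Mybpc2, the fast skeletal myosin-binding protein C, by 2.78 and 2.75, Lad1 by 2.81 and 2.33, and Mfsd4b1, a transporter, by 2.66 and 2.42. Clcn1, the muscle chloride channel, fell by 3.73 ± 0.27 and 2.55 ± 0.22, and its interaction of -1.18 ± 0.35 had an adjusted P of 0.099, which became a call with the pairs as a block (adjusted P = 0.010). By limma on log2(TPM + 1) the interaction of Clcn1 changed sign. Ckmt2, the mitochondrial creatine kinase, fell by 1.70 ± 0.12 and 1.78 ± 0.12, with an interaction of 0.09 ± 0.16.

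Of the shared rises, Vxn, which encodes vexin, had groups far apart in both chambers. It was at 5.61, 4.06 and 4.24 CPM in ventricle no dox, 26.6, 25.7 and 28.3 CPM in ventricle on dox, 3.51, 3.30 and 3.58 CPM in atria no dox and 30.2, 28.7 and 31.2 CPM in atria on dox. Vxn rose by 2.53 ± 0.13 in the ventricle and 3.12 ± 0.13 in the atria (interaction -0.58 ± 0.17, adjusted P = 0.10). Cited1, a transcriptional coregulator, rose by 3.66 and 3.38, Erc2, a scaffold of the presynaptic active zone, by 3.37 and 2.67, Gucy2e, a guanylate cyclase, by 3.04 and 2.57, and Ptchd3 by 2.48 and 3.78. Gm12250 was also named by rule (4.79 ± 1.05 and 3.13 ± 1.03), but its on dox levels ranged from 5.73 to 132 CPM in the ventricle and its atria call was lost in 5 of the 12 fits that leave out 1 library, those without atria on dox replicate 1 or 3 or any 1 atria no dox replicate.

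**Figure D4:**
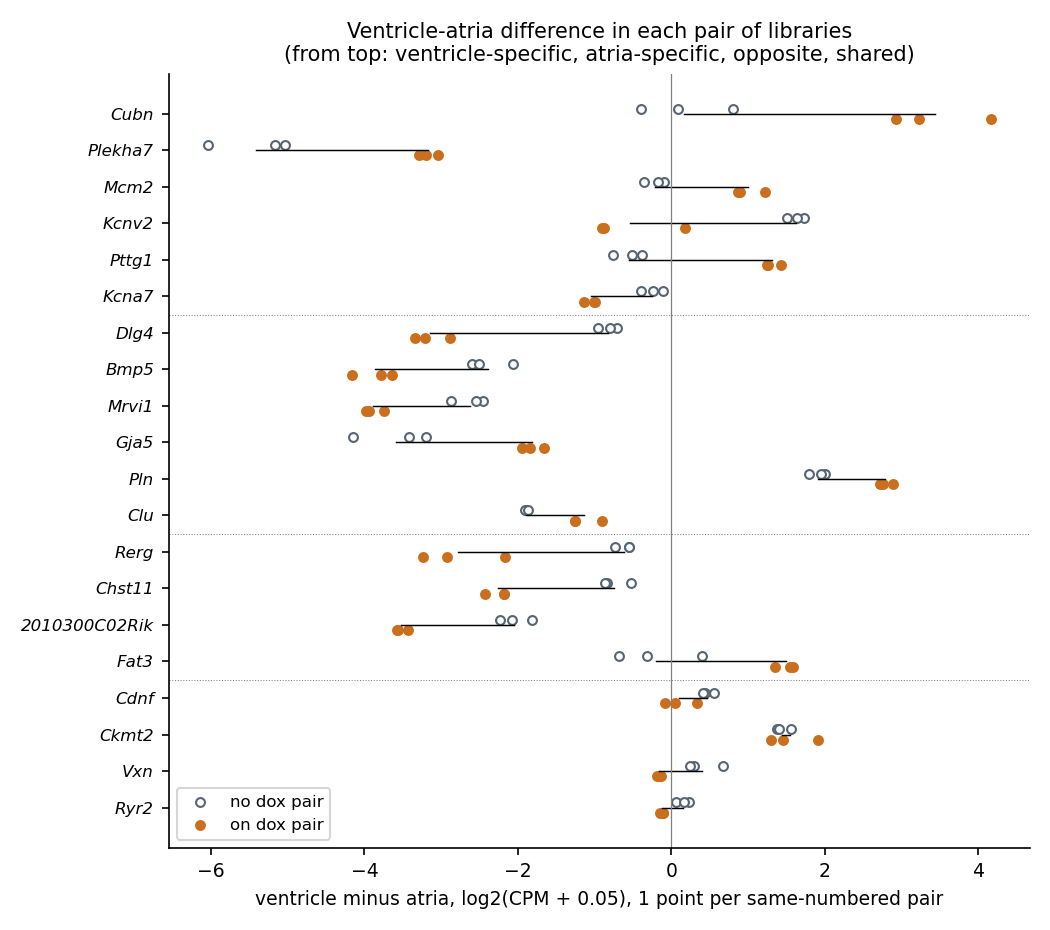
Ventricle minus atria difference of same-numbered libraries, in log2(CPM + 0.05), for 20 genes, with open points for no dox pairs, filled points for on dox pairs and a line joining the group means. Mcm2 changes sign in all pairs, Gja5 and Plekha7 move towards 0, Dlg4, Bmp5, Mrvi1 and Pln move away from it, and the 4 shared genes at the bottom shift by less than these.

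On dox the chambers were more alike for some genes and less alike for others. Among the 147 interaction genes the fitted ventricle-atria difference was larger on dox for 53 and smaller for 42, and for 52 the order of the chambers changed. In same-numbered pairs, the 3 on dox differences lay all above or all below the 3 no dox differences for all 147 genes, a count the interaction call itself largely fixes, for 88 of the 415 shared genes and for 24.2% of all tested genes. For Gja5 the pair differences were -4.15, -3.19 and -3.41 without dox and -1.84, -1.66 and -1.95 on dox. For Pln they were 2.00, 1.95 and 1.80 without dox and 2.75, 2.71 and 2.89 on dox.

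The on/off dox mice, which were taken off dox at 9 weeks of age, are not in the interaction contrast, although their libraries share its normalization and error estimate, and they gave the chamber difference in a further condition. Their ventricle-atria difference was nearer to that of no dox than of on dox mice for 125 of the 147 interaction genes (85%). The share was 63.3% for all tested genes and 64.6% for the shared genes. The 147 genes were chosen by the same no dox and on dox values, and the shared genes for having no called interaction. These shares are therefore not a like comparison, and no conclusion is drawn from their difference. By class, the difference was nearer to no dox for 53 of 59 ventricle-specific and 33 of 41 atria-specific genes. It was so for 12 of 18 unequal responses (66.7%), 3 of 4 opposite responses and 24 of 25 genes with neither response called. For Gja5 the difference was -3.56 ± 0.23 in no dox, -3.30 ± 0.23 in on/off dox and -1.83 ± 0.22 in on dox mice, and for Pln 1.91 ± 0.11, 2.14 ± 0.11 and 2.79 ± 0.12. Dlg4 lay nearer to no dox as well, with -0.84 ± 0.13, -1.41 ± 0.13 and -3.12 ± 0.13. Bmp5 did not, with -2.44 ± 0.18, -3.27 ± 0.18 and -3.91 ± 0.18. These values are of the chamber difference and not of each chamber. Within the ventricle, mean CPM in no dox, on/off dox and on dox was 2.33, 1.485 and 1.35 for Rerg and 2.32, 1.62 and 1.37 for 2010300C02Rik, nearer to on dox. It was 7.24, 6.38 and 4.80 for Chst11 and 1.04, 0.963 and 1.83 for Fat3, nearer to no dox.

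The chamber bias of each class was read from the on/off dox libraries. In the on/off dox libraries 11.2% of all tested genes were called higher in the ventricle and 13% higher in the atria. Of the 59 ventricle-specific genes 17 were higher in the ventricle and 14 in the atria. Of the 41 atria-specific genes 12 were higher in the ventricle and 20 in the atria. Among the 415 shared genes the counts were 106 and 105, so the shared class had such a bias too (25.5% and 25.3%). Of the 18 unequal responses of the same direction, 12 were higher in the atria and 3 in the ventricle.

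Among metabolic and structural lists, fatty acid use held the most falls. Of 32 fatty acid use genes 11 fell in the ventricle, 6 fell in the atria and none rose, with medians of -0.45 and -0.25. Pdk4, which blocks pyruvate entry into the citrate cycle, fell by 3.10 ± 0.52 and 2.19 ± 0.50, and Ucp3, a mitochondrial carrier, by 2.14 and 1.89. Of 34 sarcomere genes 3 rose and 2 fell in the ventricle and 2 fell in the atria, and of 33 nuclear genes of the respiratory chain and 25 cytosolic ribosomal protein genes none was called in either chamber. Of 28 splicing regulators Rbfox1 (-1.08) and Nova2 (-0.66) fell in the ventricle and none was called in the atria. Mbnl1, Mbnl2, Mbnl3 and the endogenous Dmpk were not called in either chamber, and Mbnl2 had 0.36 ± 0.09 and 0.27 ± 0.09.

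Of 34 interferon response genes, 14 rose in the ventricle and 1, Usp18, rose in the atria, against 4.13% and 2.4% of all tested genes. The list's medians were 1.31 (ventricle) and 1.05 (atria), and no interaction was called (lowest adjusted P = 0.44). Igtp, an interferon-induced GTPase, rose by 5.54 in the ventricle and had 2.26 in the atria. Of 30 genes of the extracellular matrix and fibrosis, Tnc, a matrix protein of tissue repair, rose in the ventricle (1.81) and Fn1, fibronectin, fell in the atria (-0.82). The list's median was 0.17 (ventricle) and -0.29 (atria), and the median interaction was 0.48 against 0.01 over all tested genes, but no member had a called interaction (lowest adjusted P = 0.32). Medians of the 9 fibroblast markers were 0.07 (ventricle), -0.35 (atria) and 0.43 (interaction), and their part in the matrix list was not tested. Endothelial markers were lower on dox in both chambers, with summed levels of 966 to 1061 and 753 to 770 CPM in the ventricle and 759 to 801 and 603 to 614 CPM in the atria, no dox before on dox. Red blood cell markers in the ventricle summed to 776 to 1635 and 156 to 469 CPM, and smooth muscle and pericyte markers to 698 to 886 and 555 to 695 CPM. The part of these 3 lists in the results was not tested.

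**Figure D5:**
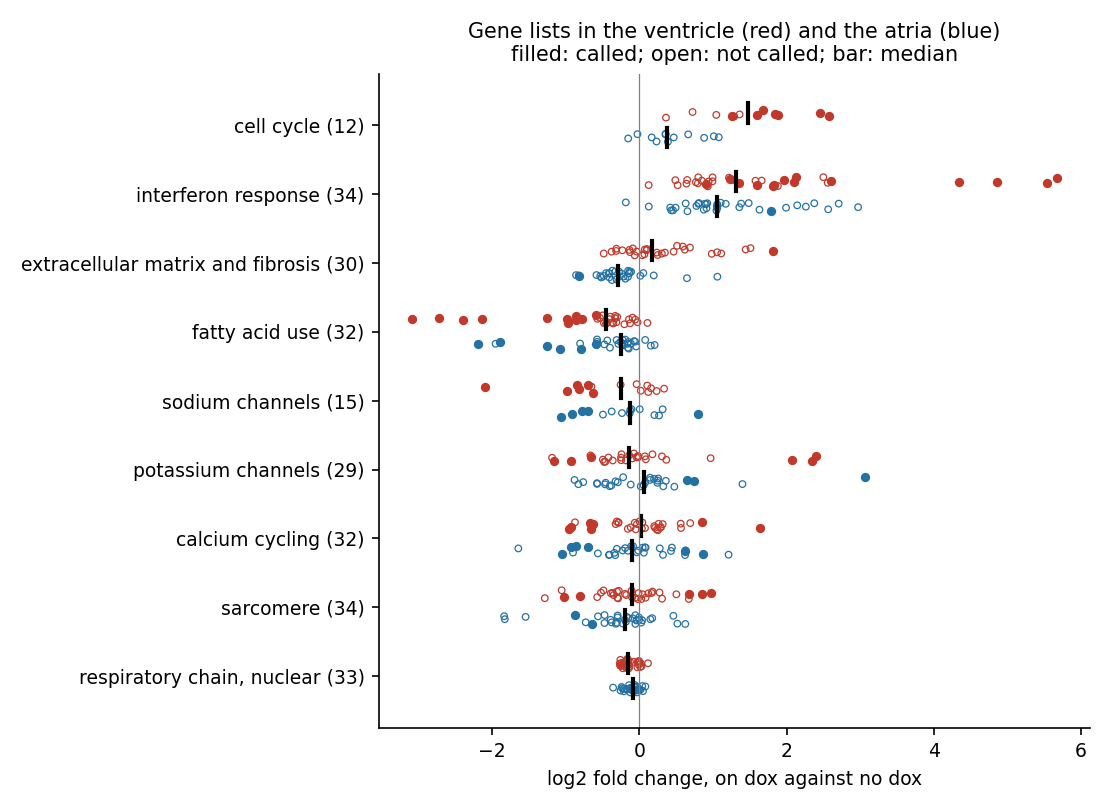
Log2 fold change of on dox against no dox for the tested members of 9 gene lists, in the ventricle (red) and the atria (blue), with filled points for called genes, open points for genes not called and a bar at the median. Cell cycle genes have medians of 1.48 and 0.37 in the 2 chambers, interferon response genes 1.31 and 1.05, fatty acid use genes -0.45 and -0.25, and extracellular matrix genes 0.17 and -0.29.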

How the data were processed

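RNA from the left ventricle and atria was made into stranded poly(A) libraries, aligned with STAR 2.7.10b and quantified with RSEM 1.3.1 by the authors. The expected counts deposited by the authors are not normalized, and the TPM deposited by the authors are scaled by transcript length. Expected counts were rounded, and edgeR 4.0.16 (R 4.3.3, TMM, filterByExpr, robust quasi-likelihood test) was fitted to all 36 libraries with 12 group means and 24 residual degrees of freedom. This fit has no term for the mouse. Its SE and P values, and its degrees of freedom, therefore treat ventricle and atria libraries of the same mouse as independent. Of 55291 symbols 19231 were tested, with P values adjusted over all of them, and genes near 0 counts were dropped. DESeq2 1.42.0, limma 3.58.1, other scalings and filters and leaving out each library were tried as alternatives.

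The members, gene lists and tests were chosen with earlier results of these data known. Named genes were a fixed set of 17, the 6 largest interactions of each chamber-specific class and the 6 largest shared changes in each direction (at least 100 mean normalized counts and no overlap in the responding chamber), all opposite responses, and list members with a called interaction. All other named genes, the list members given as examples included, were picked once their values were known. Some items that the rule names are not reported here.

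Replicate numbers in the labels pair the chambers: deviations of all 6 same-numbered ventricle and atria libraries correlated (r between 0.12 and 0.26), and those of different numbers did not exceed 0.038. The study's sample list gives the same mice for both chambers of a cohort, without the replicate numbers of the labels. GENCODE M21 (GRCm38) gave gene positions and exon overlaps. Scripts were tested on simulated data. Figures used matplotlib 3.10.9 in Python 3.11.15.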

Additional observations from a re-analysis of the deposited data

Results flagged for a closer look

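The 147 interactions called by edgeR's quasi-likelihood test are themselves differences between the chambers in the same contrast, and 47 of these genes are given here. All values here are interactions on the log2 scale, ventricle response minus atria response, each past the Benjamini-Hochberg adjusted threshold.

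Ventricle-specific rises were Cubn at 3.30, Iqgap3 at 2.62, Prokr1 at 2.23, Plekha7 at 2.21, Pttg1 at 1.91, Efhd1 at 1.84, Gins2 at 1.38, Mcm2 at 1.21, Mcm7 at 0.95 and Mad2l1 at 0.95. Ventricle-specific falls were Kcnv2 at -2.12, Gm15543 at -2.06, Fstl4 at -1.42, Fah at -1.12, Rasgrp2 at -1.10, Efr3b at -1.07, Eno1b at -0.91 and Kcna7 at -0.81.

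Atria-specific rises were Dlg4 at -2.29, Xylt1 at -1.61, Bmp5 at -1.47, Whrn at -1.42, Brsk1 at -1.27 and Mrvi1 at -1.26. Atria-specific falls were Gm14261 at 3.29, Sall4 at 2.91, Mthfd2 at 2.45, Dpysl5 at 2.29, Gja5 at 1.73, Nalcn at 1.57, C530008M17Rik at 1.25, Ndrg4 at 1.06 and Pln at 0.88.

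The opposite responses were Rerg at -2.21, Fat3 at 1.68, Chst11 at -1.51 and 2010300C02Rik at -1.49. Responses of the same direction and unequal size were Syn2 at 2.55, Igfbpl1 at 2.35, Aass at 2.32, Rims4 at -1.62, Kcna4 at 1.60 and Abat at 1.27. With neither response called, the values were 1.05 for Cgnl1, 1.05 for Smc4, -0.86 for Gm4735 and -0.78 for Eno1.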

How the results depend on the processing

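The 147 interactions became 279 with DESeq2, 337 with limma voom, 75 at 2-fold and 299 with a replicate block within cohort, and 89 to 164 when 1 library was left out. DESeq2 called 145 of the 147, voom 142, limma on log2(TPM + 1) 100 and the within-cohort block 143. An additive replicate block gave 183. The share with the more positive ventricle response was 51.7%, 60.2% with voom, 58.7% at 2-fold, 48% with RLE, 47.5% without a fold threshold and 44.8% (without ventricle on dox replicate 2) to 58.5% (without ventricle on dox replicate 3) when 1 library was left out. Ventricle-specific responses (59) became 111 with DESeq2, 132 with voom, 54 on TPM, 31 at 2-fold, 118 with the within-cohort block and 31 to 75 when 1 library was left out. They were 38 without ventricle on dox replicate 1, 35 without ventricle no dox replicate 1, 31 without atria on dox replicate 2 and 36 without atria no dox replicate 2. Atria-specific responses (41) became 85 with DESeq2, 97 with voom, 94 on TPM, 65 without a fold threshold, 16 at 2-fold, 78 with the within-cohort block and 30 to 52 when 1 library was left out. Opposite responses (4) became 2 without a count filter, 7 with DESeq2, 10 with voom, 2 on TPM, 7 on the 12 libraries alone, 7 without ventricle MBNL1 replicate 1, 7 on library set A (an alternative chosen after seeing the data), 21 without a fold threshold, 0 at 2-fold (where 75 interactions were called by edgeR) and 2 to 5 when 1 library was left out, with 2 without ventricle on dox replicate 1, ventricle no dox replicate 3, atria on dox replicate 2 or atria no dox replicate 2. In the main edgeR fit 2120 genes had an unadjusted interaction P below 0.05, whatever their fold change. Ventricle calls (1461) became 714 on TPM, 4021 without a fold threshold and 684 at 2-fold (1097 to 1470 when 1 library was left out), atria calls (1005) 1725 with voom, 3060 and 455 (696 to 1045), and shared responses (415) 231 on TPM, 1679 and 157 (321 to 416). On TPM the uncalled interactions of Clcn1 (1.01), Cited1 (-1.34) and Gucy2e (-0.89) changed sign. The cause of these changes was not tested. With 3 libraries a group, small differences between chambers may be missed, and genes under about 1 CPM in a chamber rest on few counts.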
